A study of Homo sapiens with 8 samples.

Results

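Small nucleolar RNA host genes are transcripts that carry small nucleolar RNAs (snoRNAs) inside their introns. Their members were the rows of the deposited count table named SNHG with a number, together with GAS5, ZFAS1, EPB41L4A-AS1 and DANCR. This gave 29 rows with 28 symbols of 58735 genes, since SNHG28 was listed under 2 gene identifiers. Of the 29 rows, 22 passed the filter on low counts, which kept 14621 genes in all. The RNA-seq libraries came from cells that the labels call A549 (a widely used line from a human lung adenocarcinoma), and asked what KRT19 overexpression changed in their RNA. The EV group was made with an empty vector and the KRT19 group with a construct that overexpressed KRT19 (keratin 19, an epithelial intermediate filament protein). Each group had 4 libraries, and nothing in the labels said that the replicates were separate cultures, so p-values measure only the spread between these libraries.

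SnoRNAs guide chemical modification of ribosomal and spliceosomal RNA in the nucleolus. Box C/D snoRNAs (SNORD) direct 2′-O-methylation, box H/ACA snoRNAs (SNORA) direct pseudouridylation, and the related SCARNA genes act in Cajal bodies. The snoRNA is cut from the spliced intron, while the spliced host RNA leaves for the cytoplasm. Many spliced host RNAs are known to be short-lived there, because ribosomes read their short open reading frames and nonsense-mediated decay removes them. Several host genes start with a run of pyrimidines (a TOP start), the element that ties the translation of ribosomal protein mRNAs to growth signals.

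The sequences that follow show what the host genes carry. The first group is the 3 box C/D snoRNAs of ZFAS1 (GRCh38 chr20, plus strand), with SNORD104 of SNHG25 and SNORD50B of SNHG5. They are shown because 3 of them were counted in these libraries and 2 were not. Capitals mark the first exact TGATGA (box C) and the last CTGA (box D), read on the strand of the gene, 5′ to 3′, from the GENCODE 29 transcripts.
SNORD12C, chr20:49278940-49279028, plus strand: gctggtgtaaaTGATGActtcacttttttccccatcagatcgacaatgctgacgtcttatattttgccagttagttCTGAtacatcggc
SNORD12B, chr20:49280319-49280409, plus strand: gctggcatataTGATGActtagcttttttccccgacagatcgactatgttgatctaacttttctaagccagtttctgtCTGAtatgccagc
SNORD12, chr20:49280683-49280772, plus strand: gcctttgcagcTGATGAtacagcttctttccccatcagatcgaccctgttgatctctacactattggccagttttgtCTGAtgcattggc
SNORD104, chr17:64146083-64146152, plus strand: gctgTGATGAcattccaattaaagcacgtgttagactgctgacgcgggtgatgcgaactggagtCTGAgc
SNORD50B, chr6:85677589-85677658, minus strand: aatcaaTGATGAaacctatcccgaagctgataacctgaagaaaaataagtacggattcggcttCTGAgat

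The 2 box H/ACA snoRNAs of SNHG3 are shown because they are near copies of each other, and only SNORA73B was counted. Capitals mark the ACA close to the 3′ end. SNORA73A (206 bases) and SNORA73B (204 bases) differed by 14 edits, an identity of 93.2%.
SNORA73A, chr1:28507366-28507571, plus strand: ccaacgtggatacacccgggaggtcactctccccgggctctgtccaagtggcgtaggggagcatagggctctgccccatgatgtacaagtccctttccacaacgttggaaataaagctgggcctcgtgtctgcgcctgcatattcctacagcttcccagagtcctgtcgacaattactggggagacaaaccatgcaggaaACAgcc
SNORA73B, chr1:28508559-28508762, plus strand: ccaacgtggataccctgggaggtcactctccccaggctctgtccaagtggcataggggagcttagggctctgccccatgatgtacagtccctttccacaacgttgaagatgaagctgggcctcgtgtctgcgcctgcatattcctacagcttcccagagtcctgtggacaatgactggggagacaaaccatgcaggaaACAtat

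Host gene starts were read from RefSeq (GRCh38.p14) for the 24 of 28 symbols that had an entry. A C at the annotated first base followed by at least 4 C or T was looked for on the strand of the gene only. This run was found in 6 of 24 host gene windows (25%), and in 1429 of 35116 windows over all genes (4.07%). The 6 host genes were SNHG4, SNHG5, SNHG12, SNHG18, SNHG19 and ZFAS1. Their windows are shown for 5, all but SNHG18, which had no count in these libraries. GAS5 and EPB41L4A-AS1 are given beside them as host genes without the run. Each window holds 10 bases before the annotated start and 30 from it on, with the run in capitals.
SNHG5, chr6:85678704-85678743, minus strand: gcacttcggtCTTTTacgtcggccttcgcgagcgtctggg
ZFAS1, chr20:49278632-49278671, plus strand: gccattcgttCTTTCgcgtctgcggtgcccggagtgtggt
SNHG19, chr16:2155329-2155368, minus strand: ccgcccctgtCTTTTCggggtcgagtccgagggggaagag
SNHG4, chr5:139274091-139274130, plus strand: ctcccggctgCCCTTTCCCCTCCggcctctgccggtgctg
SNHG12, chr1:28581844-28581883, minus strand: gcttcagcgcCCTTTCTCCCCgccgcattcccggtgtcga
GAS5, chr1:173869016-173869055, minus strand: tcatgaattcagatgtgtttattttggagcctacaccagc
EPB41L4A-AS1, chr5:112160516-112160555, plus strand: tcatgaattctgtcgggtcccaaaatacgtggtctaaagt

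These starts are annotated, not measured, and the annotations differ. The RefSeq start of ZFAS1 lay 464 bases downstream of the 5′ end in the count table, and that of SNHG12 lay 1259 bases downstream. The RefSeq start of GAS5 lay 163 bases upstream of the table's 5′ end. A missing run therefore says only that these letters are not at this annotated base.

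The libraries held 14073065 to 17054364 counts, and the mitochondrial share was 2.95% to 3.38%. KRT19 had 1 to 5 counts in the EV libraries and 4353 to 5147 in the KRT19 libraries, so the labels held for the targeted gene (log2 fold change 10.75 ± 0.12, SE, adjusted p = 5.19e-20). KRT8 had 2988 to 3857 counts and KRT18 4271 to 5746, and KRT7 had 34 to 71, whereas the epithelial markers EPCAM (0 to 3 counts) and CDH1 (0 to 1) were at or near 0. Of 6 alveolar markers, 4 were at 0 in every library, and NKX2-1 had 3 to 4 counts. The 9p21 genes CDKN2A, CDKN2B and MTAP, which are known to be deleted in A549, together had 2447 to 3353 counts in each library, so the cells are called here only by their label. The labels' extraction text names retina. Of 7 retina markers, 3 were at 0 in every library and 5 did not exceed 3 counts in any. NRL had 9 to 24 counts. Of the 4 blood markers, none exceeded 1 count. Among fibroblast markers, VIM had 33316 to 42072 counts, COL1A1 had 21 to 54, COL1A2 had 0 to 1, PDGFRB had 0 to 6 and DCN had 0 to 7.

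The host genes took 0.0885% to 0.0973% of all counts. Their summed level was 931 ± 43.0 CPM in the EV group and 952 ± 22.7 CPM in the KRT19 group (CPM, counts scaled to a common library size; SD, n = 4 each), and the libraries of both groups overlapped. SNHG5 and GAS5 alone made up 38.1% to 41.1% of the host gene counts of a library. In bulk RNA, fewer cells of a kind and less RNA per cell cannot be told apart.

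Levels between genes were compared per length, as RPKM (counts scaled to library size and to annotated exon length). SNHG5 was the highest at 85.1 RPKM over all libraries, followed by SNHG6 at 69.3, GAS5 at 37.6 and SNHG8 at 36.1 RPKM. SNHG19 (26.5 RPKM), ZFAS1 (26.0), DANCR (20.1), SNHG1 (18.2), SNHG3 (17.1) and SNHG16 (11.0) came next. SNHG4 had 7.59 RPKM, SNHG15 6.51, SNHG17 4.49, SNHG7 3.24 and SNHG10 3.03. EPB41L4A-AS1 followed at 2.89 RPKM, SNHG11 at 2.83, SNHG12 at 2.32 and SNHG9 at 1.36. The lowest tested host genes were SNHG21 at 1.28, SNHG20 at 1.18 and SNHG26 at 0.720 RPKM.

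Of the 21 pairs of neighbours in this order, 11 kept the order in every one of the 8 libraries, among them SNHG5 above SNHG6, SNHG8 above SNHG19 and SNHG4 above SNHG15. The ranges over the 8 libraries were apart for 4 of these pairs, SNHG6 and GAS5, SNHG3 and SNHG16, SNHG16 and SNHG4, and SNHG15 and SNHG17. The other 10 pairs changed order in at least 1 library. SNHG5 stood at percentile 96.8 of the RPKM of all tested genes, and SNHG26 at percentile 16.4. The order also rests on the length used. The deposited length joins every annotated exon, and GAS5 has 3631 such bases but a median annotated transcript of 688 bases. With the median transcript length, chosen after the data were seen, GAS5 was at 199 RPKM, SNHG6 at 154, ZFAS1 at 87.6 and SNHG5 at 355 RPKM, so that GAS5 lay above SNHG6.

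**Figure D1:**
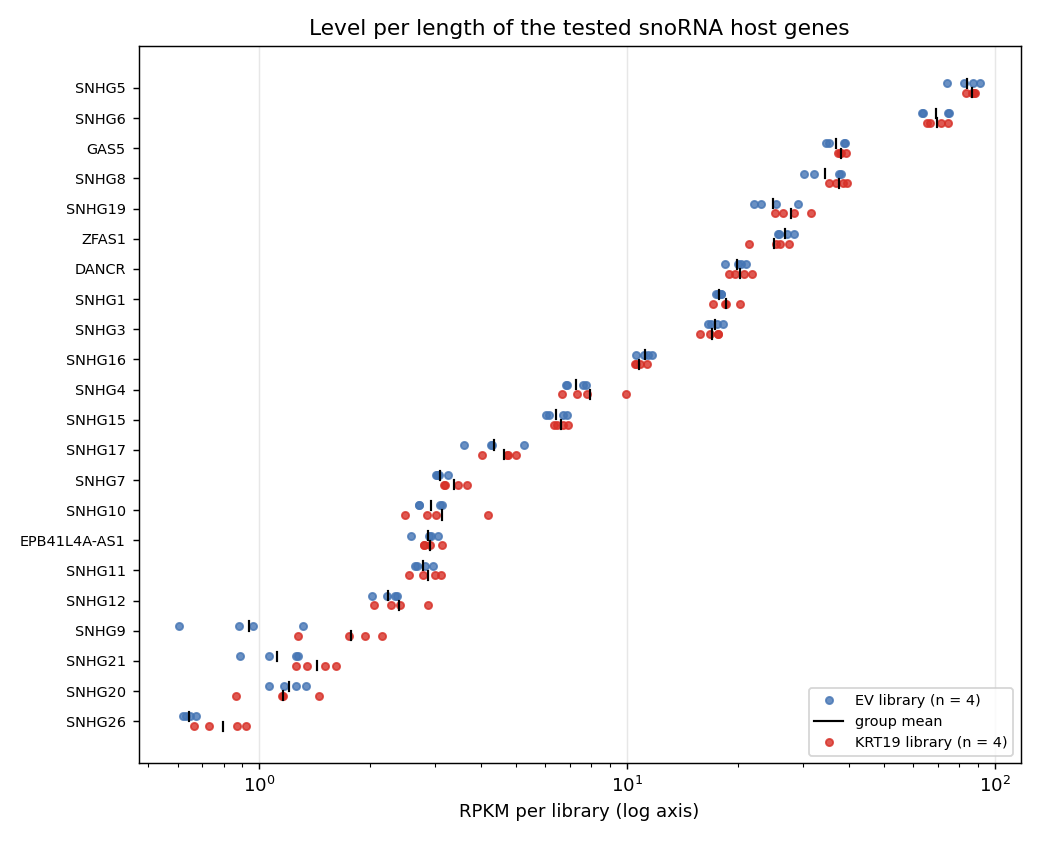
RPKM (log axis) of the 22 tested host genes in each library, blue for the 4 EV and red for the 4 KRT19 libraries, with a black tick at each group mean. Levels run from 85.1 RPKM for SNHG5 to 0.720 for SNHG26, and the 2 groups overlap for every gene shown.

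Low host genes were outside the comparison. SNHG27 had 3 to 19 counts per library, SNHG25 had 0 to 4 and SNHG14, the host of the imprinted SNORD115 and SNORD116 clusters at 15q11, had 0 to 3. SNHG22 had 0 to 1 count, and 1 of the SNHG28 rows had 0 to 4. The other SNHG28 row and SNHG18 were at 0 in every library. A count of 0 allows up to 3 counts, or 0.176 to 0.213 CPM by library, from counting error alone.

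No host gene differed between the groups after adjustment. At an adjusted p of 0.05 edgeR called 0 of 22, with adjusted p from 0.906 to 0.993, and over all genes it called 1 of 14621 (0.00684%), which was KRT19. At an unadjusted p of 0.05, 1 host gene was higher in the KRT19 group, beside 2.85% of all genes, and 0 were lower, beside 2.56% of all genes. The KRT19 libraries lay wholly above the EV libraries for 0 host genes (1.63% of all genes) and wholly below for 0 (1.81% of all genes). DESeq2 also called 0 after adjustment.

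The log2 fold changes, KRT19 minus EV, had a median of 0.05 over the 22 host genes and of 0.01 over all genes. They were above 0 for 18 of 22 host genes (81.8%) and for 52.2% of all genes. The host genes come from the same 8 libraries and are not separate observations. Their median deviation per library had an SD of 0.05 within groups, on the log2 CPM scale. The median was 0.03 without EV replicate 1, the library in which 8 of the 22 host genes had their lowest level, and 16 of 22 were then above 0. KRT19 replicate 4 held the highest level for 7 of the 22, and without it the median was also 0.03.

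The intervals show what size of change these libraries could hold. The 95% interval lay within 1.2-fold in either direction for 10 of 22 host genes, within 1.3-fold for 17 and within 1.5-fold for 19. The 3 others, SNHG9, SNHG21 and SNHG26, were the 3 with the fewest counts.

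**Figure D2:**
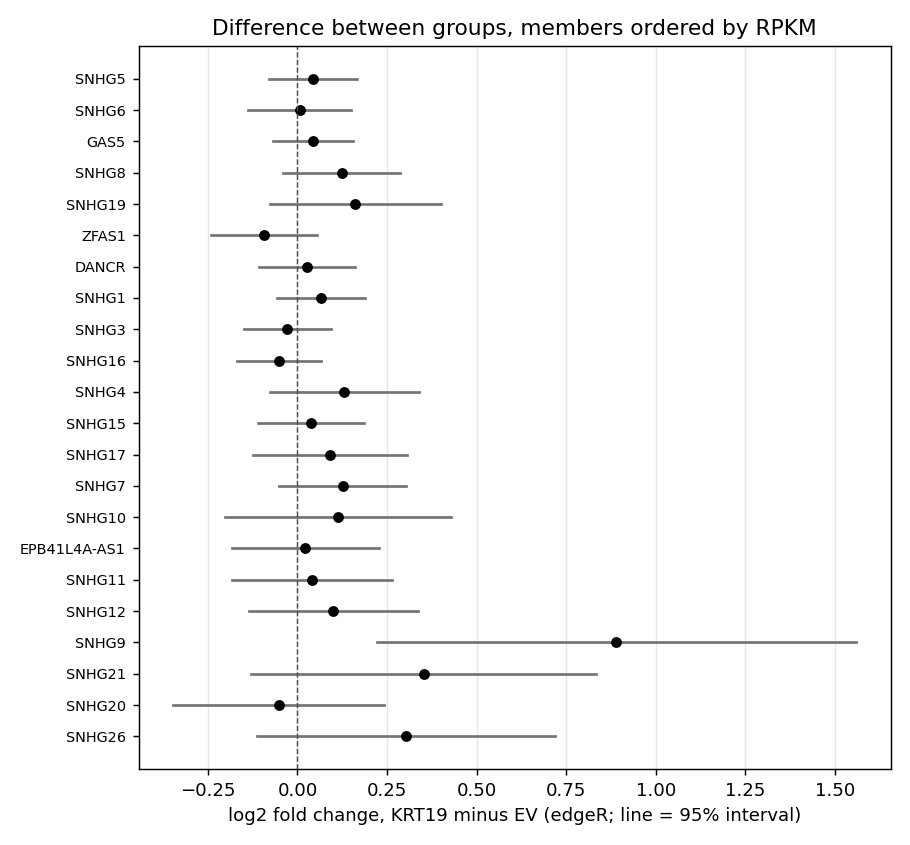
The log2 fold change (KRT19 minus EV) of each tested host gene with its 95% interval, ordered by mean RPKM. The points run from -0.09 for ZFAS1 to 0.89 for SNHG9, and SNHG9 alone has an interval that leaves out 0.

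SNHG5 (ENSG00000203875, chr6:85660950-85678748, minus strand, GRCh38) hosts SNORD50B, whose sequence is given above. Its levels were 208, 245, 256 and 231 CPM in the EV libraries and 246, 243, 234 and 247 CPM in the KRT19 ones. The lowest value was EV replicate 1 and the groups overlapped. The log2 fold change was 0.04 ± 0.06 (SE, 95% interval -0.08 to 0.17, adjusted p = 0.954).

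SNHG6 (ENSG00000245910, chr8:66921684-66926398, minus strand) hosts SNORD87. It had 79.4, 93.3, 93.2 and 78.9 CPM in the EV libraries and 92.7, 82.9, 81.7 and 89.0 CPM in the KRT19 ones. The EV libraries reached both ends of this range, with a log2 fold change of 0.01 ± 0.07 (adjusted p = 0.993). Of its exon bases, 29.3% also lie in exons of MCMDC2 on the other strand, which had 31 counts in all.

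GAS5 (growth arrest specific 5, ENSG00000234741, chr1:173863900-173868882, minus strand) is known for rising when growth stops, as its spliced RNA escapes decay. Its levels were 126, 142, 141 and 128 CPM in the EV libraries and 138, 137, 136 and 143 CPM in the KRT19 ones. The KRT19 libraries all lay within or just above the range of the EV libraries. The log2 fold change was 0.04 ± 0.05 (95% interval -0.07 to 0.16, adjusted p = 0.948), the smallest SE among the host genes. GENCODE 29 lists no gene named SNORD, SNORA or SCARNA inside this row, so its own snoRNAs were not followed.

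SNHG8 (ENSG00000269893, chr4:118278709-118279823, plus strand) hosts SNORA24. It had 28.0, 34.7, 35.3 and 29.7 CPM in the EV libraries and 35.7, 32.7, 34.2 and 36.5 CPM in the KRT19 ones. EV replicates 1 and 4 were the lowest, and the other EV libraries lay among the KRT19 libraries. Its log2 fold change was 0.12 ± 0.08 (adjusted p = 0.906). Leaving out 1 library at a time moved it from 0.07 without EV replicate 1 (unadjusted p = 0.386, edgeR) to 0.18 without EV replicate 3 (unadjusted p = 0.0400). With limma-voom and sample quality weights together it was 0.17 (unadjusted p = 0.0247), and none of these passed the adjusted threshold.

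SNHG19 (ENSG00000260260, chr16:2154797-2155358, minus strand) hosts SNORD60 and has a pyrimidine run at its start. Its levels were 7.92, 9.94, 8.70 and 7.59 CPM in the EV libraries and 10.8, 9.74, 8.61 and 9.06 CPM in the KRT19 ones. KRT19 replicate 1 was the highest, and the log2 fold change was 0.16 ± 0.11 (adjusted p = 0.911). It was 0.09 without that library and 0.24 without EV replicate 2.

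ZFAS1 (ENSG00000177410, chr20:49278178-49295738, plus strand) runs antisense to ZNFX1, and it hosts the 3 SNORD12 genes shown above. It was the only one of the 9 host genes described in full with a negative value. Its levels were 63.7, 61.1, 57.7 and 58.0 CPM in the EV libraries and 48.2, 57.0, 61.7 and 58.5 CPM in the KRT19 ones. KRT19 replicate 1 stood lowest and the other libraries were mixed. Its log2 fold change was -0.09 ± 0.07 (95% interval -0.24 to 0.06, adjusted p = 0.915). Leaving out 1 library at a time moved it from -0.02 without KRT19 replicate 1 (unadjusted p = 0.702, edgeR) to -0.14 without KRT19 replicate 3 (unadjusted p = 0.0438). Exons of ZNFX1 cover 11.1% of its exon bases, on the other strand.

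DANCR (ENSG00000226950, chr4:52712404-52720351, plus strand), named for keeping progenitor cells from differentiating, hosts SNORA26. It had 45.7, 46.5, 48.0 and 42.2 CPM in the EV libraries and 49.9, 44.9, 43.3 and 47.6 CPM in the KRT19 ones. The groups were interleaved, with a log2 fold change of 0.03 ± 0.06 (95% interval -0.11 to 0.16, adjusted p = 0.971).

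EPB41L4A-AS1 (ENSG00000224032, chr5:112160526-112164276, plus strand) hosts SNORA13. Its levels were 9.65, 10.2, 8.64 and 9.83 CPM in the EV libraries and 9.72, 10.5, 9.37 and 9.40 CPM in the KRT19 ones. The groups overlapped over most of their range, with a log2 fold change of 0.02 ± 0.10 (adjusted p = 0.981). Of its exon bases, 49.6% lie in exons of EPB41L4A on the other strand, and the use of strand in the counting is not given in the sources used here. EPB41L4A had 7.70 ± 0.709 CPM in the EV libraries and 7.23 ± 0.371 CPM in the KRT19 ones (SD, n = 4 each).

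SNHG9 (ENSG00000255198, chr16:1964959-1965509, plus strand), the host of SNORA78, was the host gene past the unadjusted threshold. It had 5, 12, 8 and 9 counts in the EV libraries and 16, 15, 12 and 18 counts in the KRT19 libraries. EV replicate 2 and KRT19 replicate 3 met at 12 counts, and in CPM EV replicate 2 (0.723) lay above KRT19 replicate 3 (0.703). Its log2 fold change was 0.89 ± 0.32 (95% interval 0.22 to 1.56, unadjusted p = 0.0122, adjusted p = 0.906). The exact permutation test over the 8 libraries gave p = 0.0571 (two-sided), where the smallest it can give is 0.0286. SNHG9 reached the cutoff of the filter, 0.603 CPM, in 4 KRT19 libraries and 1 EV library, so it entered the test through the group in which it was high. The result is reported as one that failed the correction, and with the stricter filter SNHG9 was not tested.

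The other 13 tested host genes gave log2 fold changes from -0.05 to 0.35. SNHG21 had the highest of these, 0.35 ± 0.23, on 14 to 29 counts per library, with most of its exon bases shared with another gene, and SNHG26 had 0.30 ± 0.20 on 25 to 39 counts. SNHG20 and SNHG16 were both at -0.05, with SE 0.14 and 0.06, and SNHG20 was at -0.18 without KRT19 replicate 3 and at -0.11 without EV replicate 1. SNHG3 was at -0.03 ± 0.06. SNHG1, whose introns and exons hold 6 box C/D snoRNAs, was at 0.06 ± 0.06.

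KRT19 replicate 3 held the highest level of 4 tested host genes, SNHG4 and SNHG10 among them, although none of these passed Dixon's test for an outlier. SNHG4 had 758 counts in KRT19 replicate 3 and 417 to 577 in the others. SNHG10 had 139 counts in KRT19 replicate 3 and 68 to 100 in the others. On the log2 scale SNHG4 was at 0.13 with this library and 0.0014 without it, and SNHG10 at 0.11 and -0.06. Over all tested genes, KRT19 replicate 3 also had the largest mean deviation from its group, 0.152 on the log2 CPM scale against 0.105 to 0.129 for the other libraries. SNHG4 had 44.4 CPM there.

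**Figure D3:**
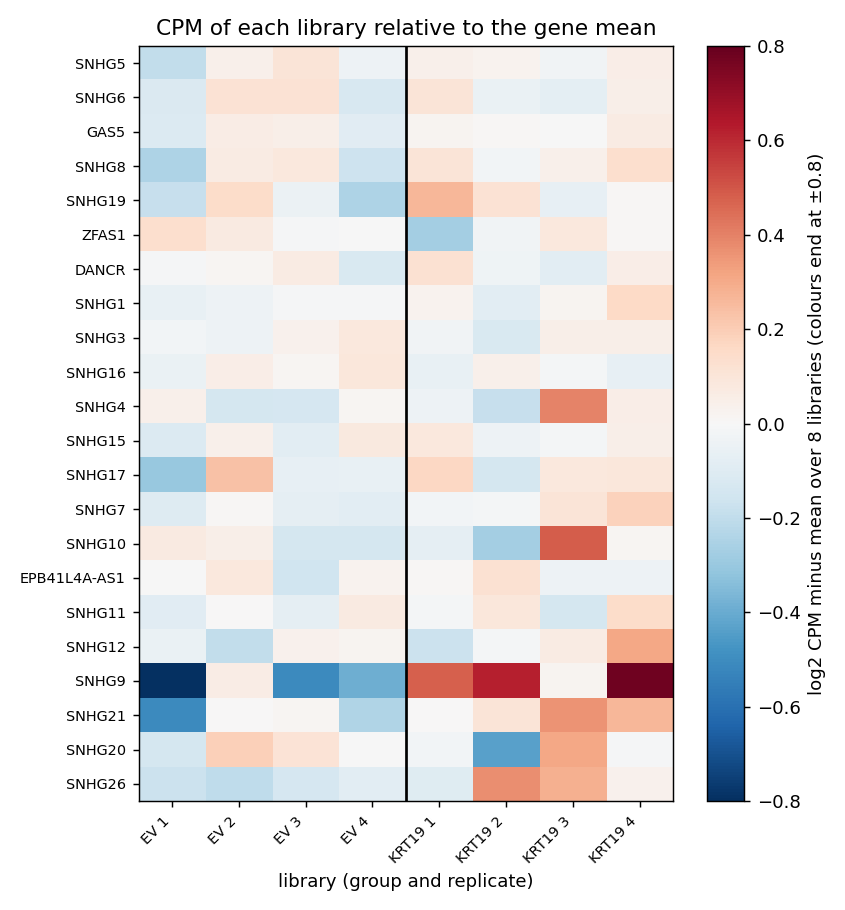
Each cell is the log2 CPM of a host gene in a library minus its mean over the 8 libraries, with red for above and blue for below, genes ordered by RPKM, and a black line between the groups. EV replicate 1 is mostly blue (lowest for 8 of 22 genes), SNHG4 and SNHG10 are red in KRT19 replicate 3, and the strong colours of SNHG9 rest on 5 to 18 counts.

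The tested host genes with a pyrimidine run at the annotated start had values on both sides of 0. SNHG5 had 0.04, SNHG12 0.10, SNHG4 0.13, SNHG19 0.16 and ZFAS1 -0.09 on the log2 scale. Without KRT19 replicate 3, SNHG4 was at 0.0014, and without EV replicate 1, SNHG5 was at -0.01.

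Some host genes share exon bases with other genes, whose reads could be counted for either. SNHG7 shares 25.2% of its exon bases with FAM69B, which was at 0.01 ± 0.09 on the log2 scale, while SNHG7 was at 0.13 ± 0.08. SNHG10 shares 20.1% with GLRX5 (-0.04 ± 0.05). SNHG21 shares 72.9% with AC105339.2 on the same strand, which had 22 counts in all. SNHG16 shares 30.6% with AC015802.6 on the other strand, and SNHG4 shares 14.01% with a MATR3 row on its own strand, each with 14 counts in all. SNHG3 shares 5.92% with RCC1 on the same strand (0.04 ± 0.05), and SNHG20 shares 7.56% with SEC14L1, also on the same strand (0.02 ± 0.05).

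The snoRNA genes inside the host genes were read as rows of their own, taking those named SNORD, SNORA or SCARNA on the strand of the host. There were 129 of them, 83 in SNHG14, and 46 in the other host genes. A further 8 snoRNA or scaRNA rows inside host genes carry other names (RF and a number), some over the same bases as a named snoRNA, and all 8 were at 0. None of the 83 in SNHG14 had a count. Of the 46, 17 had at least 1 count and 29 were at 0 in all libraries. The 17 held 521 counts over the 8 libraries, 237 in EV and 284 in KRT19, which is 0.432% of the 120497 counts of the host genes. Mature snoRNAs are short and mostly lack a poly(A) tail, so these counts do not measure the amount of a snoRNA.

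The rows with and without counts split by their position in the host. Of the 20 so named snoRNA genes outside SNHG14 that lie wholly in introns of their host, 17 had counts. Of the 26 that overlap an annotated exon of their host, 25 of them over their whole length, 0 had any count. In ZFAS1, the intronic SNORD12B had 39 counts and SNORD12C had 15, while SNORD12, which lies in an exon of some annotated transcript, had 0. In SNHG3, the intronic SNORA73B had 178 counts and its near copy SNORA73A, inside an exon, had 0. All 6 snoRNAs of SNHG1 overlap host exons and were at 0, although SNHG1 itself had 8747 counts.

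The same split was present over the whole table, which includes the nested rows described above. Of 292 snoRNA rows outside every exon of another gene, 124 had counts (42.5%), and of 154 that overlap an exon on the same strand, 10 did (6.49%). The submitters' processing notes name featureCounts, a program that leaves out reads falling on more than 1 gene unless it is set to count them. The setting used is not given in the sources used here, and its part in these zeros was not tested.

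**Figure D4:**
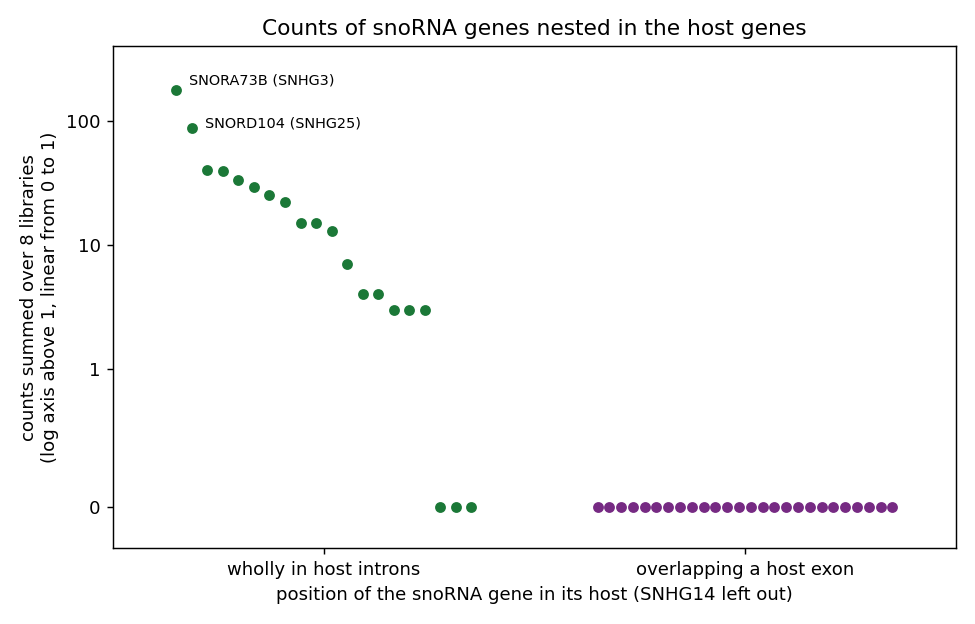
Counts summed over 8 libraries (log axis above 1, linear from 0 to 1) for the 46 snoRNA genes nested in host genes other than SNHG14, split by whether they lie wholly in host introns (20) or overlap a host exon (26). Of the intronic ones 17 have counts, up to 178 for SNORA73B, and all 26 exonic ones are at 0.

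SNORA73B (U17b, a box H/ACA snoRNA known for processing of the ribosomal RNA precursor rather than for modification) had 20, 10, 17 and 20 counts in EV and 30, 20, 39 and 22 counts in KRT19 libraries. Scaled to library size, these were 1.04 ± 0.313 CPM in the EV group and 1.74 ± 0.401 CPM in the KRT19 group (SD over 4 libraries each). Every KRT19 library lay above every EV library, as for 1.63% of all genes. Its log2 fold change of 0.76 ± 0.27 did not pass the adjusted threshold (unadjusted p = 0.0108, adjusted p = 0.906, edgeR). KRT19 replicate 3 was the highest, and without it the value was 0.60 ± 0.29 (unadjusted p = 0.0501). Its host SNHG3 was at -0.03 ± 0.06 on the log2 scale.

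SNORD104 had 7, 11, 18 and 10 counts in EV and 7, 10, 18 and 7 counts in KRT19 libraries, 88 in all. Its host SNHG25 had only 14 counts in all. This was the one host gene with fewer counts than the snoRNAs inside it. SNORA50C, also inside SNHG25, lies in a host exon and was at 0.

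In SNHG17 all 4 nested rows named SNORA are intronic and were counted. SNORA71C had 40 counts, SNORA71B 33, SNORA71A 29 and SNORA71D 3. These copies are 82.8% to 90.3% identical, so reads could be shared or lost between them. The groups overlapped for each of the first 3, as they did for SNORD12B with 2 to 8 counts per library.

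The proteins that bind snoRNAs were compared in the same fit. All 4 box C/D core genes were tested, 1 was higher (2.85% of all genes) and 0 were lower (2.56%) at an unadjusted p of 0.05, with a median log2 fold change of 0.06. NOP58, a scaffold of the C/D particle, had 98.4 ± 8.50 CPM in the EV libraries and 120 ± 26.3 CPM in the KRT19 ones (SD, n = 4 each), a log2 fold change of 0.29 ± 0.11 (unadjusted p = 0.0171, adjusted p = 0.906). Without KRT19 replicate 3 it was 0.12 ± 0.06 (unadjusted p = 0.0671), and the count of higher genes was then 0. NOP56, its partner, was at 0.10 ± 0.05, with every KRT19 library above every EV library, as for 1.63% of all genes. Without KRT19 replicate 3, NOP56 was at 0.06 ± 0.04. Fibrillarin (FBL), the methyltransferase, was at 0.02 ± 0.06, at 0.06 without KRT19 replicate 3 and at -0.01 without EV replicate 1.

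Of the 4 box H/ACA core genes, 0 were higher (2.85% of all genes) and 0 lower (2.56%). DKC1 (dyskerin, the pseudouridine synthase) had 206 ± 7.62 CPM in the EV libraries and 219 ± 2.86 CPM in the KRT19 ones. The KRT19 libraries lay wholly above the EV ones, as for 1.63% of all genes. The log2 fold change of DKC1 was 0.09 ± 0.05 (unadjusted p = 0.0568). Without KRT19 replicate 3, DKC1 was at 0.10 ± 0.04 (unadjusted p = 0.0319), and the count of higher genes was then 1 (2.49% of all genes). Without EV replicate 1, DKC1 was at 0.09 ± 0.05 (unadjusted p = 0.108, edgeR) and the count was 0 (2.71% of all genes). The list median was 0.03 over all libraries and -0.02 without EV replicate 1. NHP2 was at -0.02 ± 0.06.

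Of 11 genes for snoRNP assembly, 1 was higher (2.85% of all genes) and 0 were lower (2.56%), with a median of 0.08. ZNHIT6, a box C/D assembly factor, was at 0.28 ± 0.09 (unadjusted p = 0.0077, adjusted p = 0.887), and at 0.15 ± 0.07 without KRT19 replicate 3. Without EV replicate 1 the count of higher genes was 2, as RPAP3 was then at 0.19 (unadjusted p = 0.0477). ZNHIT3 was at -0.11 ± 0.07.

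Nonsense-mediated decay was covered by factors and by substrates. Of 14 factors 2 were higher (2.85% of all genes) and 0 lower (2.56%), with a median of 0.04. UPF3B and UPF3A, the exon junction adaptors of the pathway, were at 0.33 ± 0.12 and 0.19 ± 0.09 (unadjusted p = 0.0135 and 0.0439, adjusted p = 0.906 for both), and without KRT19 replicate 3 neither passed (0.16 and 0.08), so the count was 0. The helicase UPF1 was at 0.04 ± 0.05 over all libraries, at 0.06 without KRT19 replicate 3 and at 0.02 without EV replicate 1. Of 7 known substrates among stress mRNAs, 0 were higher and 0 lower, with a median of -0.05 and values from -0.08 (UPP1) to 0.03 (GADD45A). Without KRT19 replicate 3 the median was -0.02, with UPP1 at -0.03 and GADD45A at -0.02.

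Of 15 non-ribosomal mRNAs with a TOP start, 14 were tested, and 1 was higher (2.85% of all genes) and 1 lower (2.56%), with a median of 0.00. NPM1 (nucleophosmin) was at 0.14 ± 0.05 (unadjusted p = 0.0145), and TPT1, which also hosts a snoRNA, was at -0.11 ± 0.04 (unadjusted p = 0.0190). The values were 0.09 and -0.11 without KRT19 replicate 3. Over all libraries neither passed the adjusted threshold (adjusted p = 0.906 for both).

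Other hosts were found by position, as genes that hold a snoRNA on their own strand. Of 163 protein-coding hosts 150 were tested, and some of them, such as NOP58, NOP56, DKC1 and TPT1, are also counted in the lists above. At an unadjusted p of 0.05, 7 were higher (4.67%, beside 2.85% of all genes) and 4 lower (2.67%, beside 2.56%), with a median of 0.00. Without KRT19 replicate 3 they were 5 (3.33%, beside 2.49%) and 4 (2.67%, beside 2.86%). Without EV replicate 1 they were 9 (6%, beside 2.71%) and 4 (2.67%, beside 2.47%). GNL3 (nucleostemin, a nucleolar GTPase) had the lowest p of the higher ones, with 68.3 ± 2.71 CPM in the EV and 79.9 ± 4.87 CPM in the KRT19 group. Its KRT19 libraries lay wholly above the EV ones, as for 1.63% of all genes. The log2 fold change of GNL3 was 0.23 ± 0.06 (unadjusted p = 0.0012, adjusted p = 0.660). WDR43, a ribosome assembly factor, was at 0.24 ± 0.07 (adjusted p = 0.868) and at 0.16 ± 0.06 without KRT19 replicate 3. MAGED4B was at -2.50 ± 0.60 (adjusted p = 0.513), where the EV libraries had 4.59 ± 4.15 CPM and the KRT19 libraries 0.808 ± 0.111, the groups overlapped, and a near-identical copy makes its counts uncertain. ATP2B4, a plasma membrane calcium pump, was at -0.16 ± 0.06 (adjusted p = 0.889). Of 13 other non-coding hosts 3 were tested, with 0 higher (2.85% of all genes) and 0 lower (2.56%). LINC02001 was at 0.18 ± 0.14, AC016708.1 at -0.38 ± 0.30 and LRRC75A-AS1, the host of several box C/D snoRNAs, at -0.02 ± 0.06. Without KRT19 replicate 3, AC016708.1 was at -0.72 ± 0.32 (unadjusted p = 0.0321) and LRRC75A-AS1 at -0.07, so the count of lower ones was 1.

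**Figure D5:**
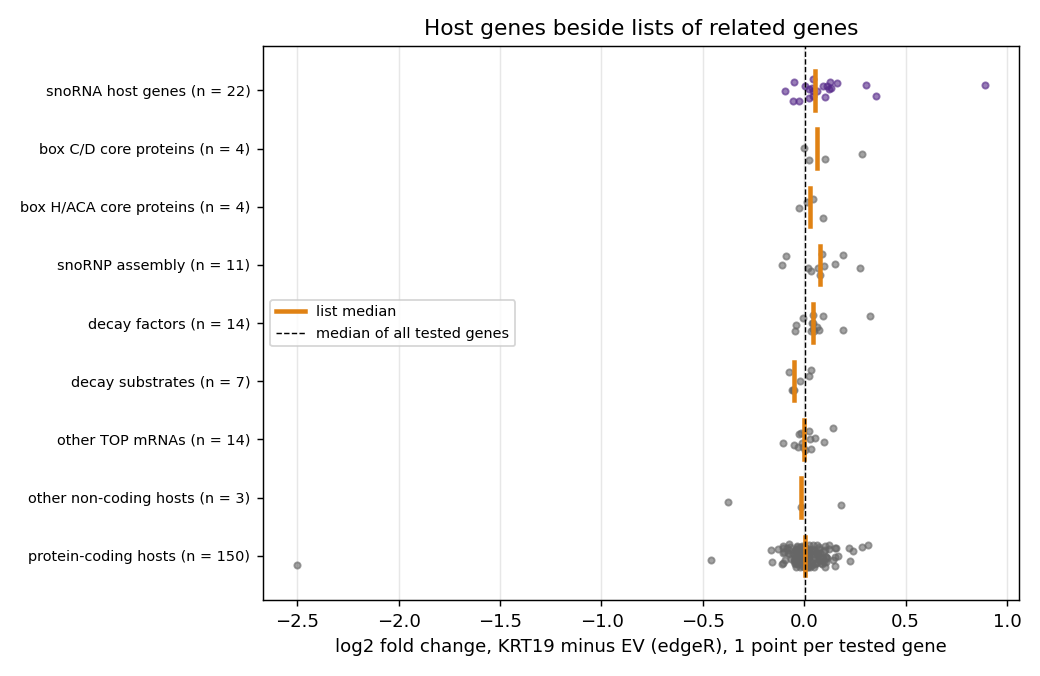
The log2 fold change (KRT19 minus EV) of every tested gene in the host gene list and in 8 lists of related genes, 1 point per gene, with an orange bar at each list median and a dashed line at the median of all 14621 tested genes. List medians lie between -0.05 and 0.08, and MAGED4B is the point at -2.50. A gene in more than 1 list is drawn in each.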

How the data were processed

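A single table was deposited, holding for each gene the read counts as the authors obtained them in 8 libraries, without normalization, with coordinates on GRCh38 and an exon length per gene. Per the labels, total RNA was extracted with TRIzol and libraries were made with a NEBNext Ultra kit. The submitters' processing notes name Bowtie 0.12.2, featureCounts 1.5.0-p3 and DESeq2, with no settings. Unexplained per-sample columns numbered 0. All 58735 genes matched GENCODE 29 in position.

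Counts were analysed with edgeR 4.0.16 in R 4.3.3: filterByExpr, TMM, glmQLFit and glmQLFTest on group alone, Benjamini-Hochberg over 14621 genes, threshold 0.05. P-values are two-sided and SEs derive from the quasi-likelihood F. CPM used TMM-scaled library sizes, and RPKM the deposited lengths. The procedure was tested on simulated data. Library pairs within a group differed beyond counting noise (chi-square per degree of freedom 2.78 to 13.6), so none was a duplicate. Floors and intervals on counts cover counting error only, since reads carried no molecular identifiers.

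Host genes and lists were chosen with earlier results of these data known. Full values are given for GAS5, ZFAS1, EPB41L4A-AS1, DANCR, the 5 highest by RPKM, and host genes past an unadjusted p of 0.05. From each list, up to 2 genes a direction with the lowest p are named; FBL, UPF1 and RPAP3 were added after their values were seen, as was the fitted value of SNORA73B. Alternatives used DESeq2 1.42.0, limma-voom (limma 3.58.1) with sample quality weights, other scalings and filters, a replicate block, a length correction and each library left out.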

Additional observations from a re-analysis of the deposited data

How the results depend on the processing

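In all, 18 alternatives were run. None gave a host gene past the adjusted threshold, and the median log2 fold change stayed between 0.03 and 0.08. The count of higher host genes at an unadjusted p of 0.05 was 1 in the main fit, beside 417 of 14621 genes. With limma-voom and sample quality weights together it was 2 (SNHG8 and SNHG9), beside 656 of 14621 genes. It was 0 with the stricter filter (298 of 10853 genes), where SNHG9 was not tested. With each library left out it was 1 to 2, the 2 without EV replicate 3 (327 of 14807 genes). The count of lower ones was 0 to 1, the 1 being ZFAS1 without KRT19 replicate 3, beside 423 of 14782 genes. KRT19 stayed between 10.52 and 11.17. SNHG9 ranged from 0.74 to 1.09 in 17 alternatives, with adjusted p from 0.299 to 1.00. Among the 9 host genes described in full, the sign of 4 near 0 changed: SNHG6 was at -0.0054 with upper-quartile normalization and at -0.034 to 0.046 with libraries left out, SNHG5 at -0.011 to 0.088, DANCR at -0.011 to 0.060 and EPB41L4A-AS1 at -0.025 to 0.055; the cause was not tested. GAS5 was at 0.015 to 0.070 with libraries left out. SNHG10, outside those 9, turned from 0.11 to -0.06 without KRT19 replicate 3. Same-numbered libraries did not deviate together (r from -0.16 to 0.06, 1 of 4 best with its own number). No pairing by replicate number was seen, although a weak shared effect could be missed. With the replicate block the counts were 0 after adjustment, 1 higher (beside 228 of 14621 genes) and 0 lower (beside 223). The median was then 0.06 and KRT19 was at 10.75. Depth limits SNHG9, SNHG21 and SNHG26, with 5 to 39 counts per library.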

Other observations

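Among 46 sets of 4 libraries examined for a single outlying value (host genes and summary measures in each group), 0 passed Dixon's 95% critical value, where chance gives about 2.3.

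Of 450 snoRNA rows in the whole table, 135 had a count, with 1913 counts in all and 211 to 317 in a library.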
